A study of Mus musculus with 21 samples.

Results

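Imprinted genes were described across 7 groups of mouse embryonic stem cells. They were taken from a list of 38 gene symbols, of which 34 had a row under that symbol in a count table of 22512 genes. The 34 genes come from 17 imprinted loci. For 15 of them the maternal allele is the one known to be expressed where the gene is imprinted, and for 19 the paternal allele. Some are known to be imprinted only in certain tissues or transcripts, and their imprinting in these cells was not measured. Airn, Nnat, Plagl1 and Rian are not analysed here under their symbols. Of the 34 genes, 33 passed the filter on low counts in Experiment 1 (Rasgrf1 did not) and all 34 passed it in Experiment 2.

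Imprinted genes are transcribed mainly from 1 parental copy, because a control region of each locus keeps the DNA methylation it received in the egg or the sperm. At the Igf2-H19 locus a methylated paternal control region lets Igf2 be expressed while the unmethylated maternal copy expresses H19, and at other loci a long noncoding RNA silences its neighbours on 1 chromosome. Many imprinted genes act on fetal and placental growth, and cultured embryonic stem cells are known to gain or lose imprints. The deposited counts add up both alleles, so each value below is a total level and carries no information on which parental copy it came from.

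All cells derived from a 129S6/SvEvTac embryonic stem cell line that carries the GFP_5xT71BS reporter and stably expresses FLAG-Cas9 with a blasticidin resistance marker. Experiment 1 held 3 libraries each of the unedited line (W), of Trim71-/- cells (Trim71KO) and of Ago2-/- cells (Ago2KO). In Experiment 2 the unedited line was transfected with pCIP FH-T6B_WT::mCherry (T6B_WT) or with its mutant form FH-T6B_MUT::mCherry (T6B_MUT), and the Trim71-/- and Ago2-/- lines were transfected with an empty plasmid (Trim71KO_empty and Ago2KO_empty), again in 3 libraries each. TRIM71 is an RNA-binding repressor of mRNAs, AGO2 carries microRNAs, and T6B is an Argonaute-binding fragment of TNRC6B (a GW182 protein) that competes with the cell's own TNRC6 proteins. Experiment 2 has no unedited group with empty plasmid, so T6B_MUT served as its control and genotype and plasmid differ together in its knockout comparisons. How many clones stand behind each knockout line is not given in the sources used here.

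MicroRNAs known from embryonic stem cells are shown first, because Ago2 deletion and T6B both act on the microRNA pathway. Levels of mature microRNAs were not measured here. RefSeq mature sequences on GRCm38.p6 are given 5′ to 3′, with the seed (bases 2 to 8) in capitals. The first 3 come from the miR-290 cluster and the next 2 from the miR-302 cluster, and all 5 share 1 seed. The last 2 lie inside imprinted genes of the list, miR-335 in Mest and miR-675 in H19.
mmu-miR-291a-3p: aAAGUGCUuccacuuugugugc
mmu-miR-294-3p: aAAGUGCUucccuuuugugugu
mmu-miR-295-3p: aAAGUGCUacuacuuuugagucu
mmu-miR-302b-3p: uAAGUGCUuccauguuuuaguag
mmu-miR-302d-3p: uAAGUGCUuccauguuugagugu
mmu-miR-335-5p: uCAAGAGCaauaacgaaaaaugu
mmu-miR-675-5p: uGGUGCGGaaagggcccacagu

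The site that pairs with the shared seed, AGCACTT, was searched in the longest annotated 3′ UTR of each gene, on the transcribed strand only. It occurred in 6 of the 30 imprinted genes with such a UTR (20.0%), against 2417 of 14336 genes tested in Experiment 1 (16.9%). The 6 genes were Peg10, Usp29, Zim1, Impact, Zrsr1 and Commd1. A match is a description of the sequence and does not show that a microRNA acts there. The stretches around the site in 4 genes whose levels are described below, read from GENCODE M21 transcripts on GRCm38 with the site in capitals, were the following.
Peg10 (chr6:4759051-4759079, plus strand): tcttttattttAGCACTTccaacaaaaat
Usp29 (chr7:6965193-6965221, plus strand): gagaatttaaaAGCACTTtaaagtgccaa
Zrsr1 (chr11:22975535-22975563, plus strand): ctgagctgcagAGCACTTgccagtatgct
Commd1 (chr11:22899556-22899584, minus strand): ttattaatcccAGCACTTgggaggcagat

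Library totals ran from 29561125 to 50826201 counts in Experiment 1 and from 33910145 to 57872324 in Experiment 2. CPM is a gene's count per 1e6 counts of its library, over genes that passed the filter and with TMM scaling. The 10 embryonic stem cell markers, Pou5f1, Nanog and Sox2 among them, summed to between 4854 and 6288 CPM in every library. The sum was higher in both Trim71 knockout groups, at 5981 to 6273 in Trim71KO against 4854 to 5057 in W, and at 6173 to 6288 in Trim71KO_empty against 5187 to 5301 in T6B_MUT. Of the 10 markers, 7 and 6 were called higher there and 1 lower in each. Over all genes, 16.9% and 14.4% were called higher and 15.6% and 13.4% lower. The part of these markers in the levels of imprinted genes was not tested. The edited genes were checked first. Trim71 stood at 602, 602 and 618 CPM in W and at 412, 416 and 459 in Trim71KO, so its transcript was lower but present, and Ago2 stood at 153, 134 and 139.5 in W and at 43.6, 42.5 and 39.8 in Ago2KO. In Experiment 2, Ago2 stood at 113, 143 and 112 in T6B_MUT and at 87.4, 167 and 45.6 in the libraries labelled Ago2KO_empty. The last 3 values spanned those of T6B_MUT, so the Ago2 transcript does not separate these libraries from their control. Ago2 fell by 1.76 on the log2 scale in Ago2KO, whereas the value of -0.30 ± 0.38 in Ago2KO_empty was not called (edgeR quasi-likelihood, adjusted p = 0.601). For the genes called in Ago2KO_empty, the values with 1 of these libraries left out are given, or the alternatives that lost the call.

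Imprinted genes differed widely in level. Levels were compared per length, in RPKM computed here as CPM per kb of gene length. Of the 34 genes, 11 averaged at least 10 in W, 13 averaged 1 to 10, and 10 averaged under 1. The highest in W were Snrpn, a small nuclear ribonucleoprotein gene, at 77.7 RPKM, Grb10, a growth factor receptor adaptor, at 53.4, and Cd81, a tetraspanin, at 51.6. The same 3 led in T6B_MUT, in the order Grb10, Cd81 and Snrpn. H19 averaged 1.38 RPKM in W, Igf2 0.634 and Dlk1 0.549. The lowest were Usp29, Zim1 and Rasgrf1, the last with at most 2 counts in any W library.

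Levels of several imprinted genes also differed between the 2 control groups, which belong to different experiments and were not tested against each other. The CPM ranges of W and T6B_MUT did not overlap for 22 of the 34 genes, of which 10 were higher in W and 12 in T6B_MUT. The share of all genes with separate ranges was not computed, so the count is not shown to be particular to imprinted genes. Cdkn1c averaged 45.8 CPM in W and 10.9 in T6B_MUT, and Peg10 averaged 153 and 51.8. Grb10 went the other way, with 486 CPM in W and 755 in T6B_MUT, and so did Igf2r, with 104 and 194. Mest, at 35.8 and 35.6 CPM, and Meg3, at 56.7 and 53.7, had overlapping ranges.

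Fold changes were tested with edgeR's quasi-likelihood F test over all genes, and a gene was called at a Benjamini-Hochberg adjusted p under 0.05. They are given as log2 values ± SE, and levels as CPM, either for replicates 1, 2 and 3 in turn or as mean ± SD over 3 libraries. In Trim71KO against W, 6 imprinted genes rose and 10 fell of 33 tested, where 16.9% of all genes rose, 15.6% fell and 32.6% did either. The share of imprinted genes called was thus 48.5%, and the side that stood further from the background was the decrease (30.3%). In Ago2KO against W, 6 rose and 5 fell of 33, against 10.2% and 7.78% of all genes (18.0% in either direction). In T6B_WT against T6B_MUT, 7 rose and 1 fell of 34, against 9.29% and 6.69% (16.0%).

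In the empty-plasmid comparisons, 9 imprinted genes rose and 9 fell of 34 in Trim71KO_empty, where 14.4% of all genes rose and 13.4% fell (27.8% in either direction). In the libraries labelled Ago2KO_empty, 9 rose and 2 fell, against 16.4% and 12.4% (28.8%). The 3 comparisons of Experiment 2 share the T6B_MUT libraries, and both knockout comparisons of Experiment 1 share W. The median log2 fold change over the imprinted genes tested was -0.04 in Trim71KO, -0.03 in Ago2KO, -0.01 in T6B_WT, -0.06 in Trim71KO_empty and 0.10 in Ago2KO_empty, beside medians over all genes between -0.003 and 0.03. The medians of the list thus stayed close to those of all genes, while single genes ranged from -2.42 (Dlk1 in Trim71KO) to 1.64 (Rasgrf1 in Trim71KO_empty) among the calls.

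**Figure D1:**
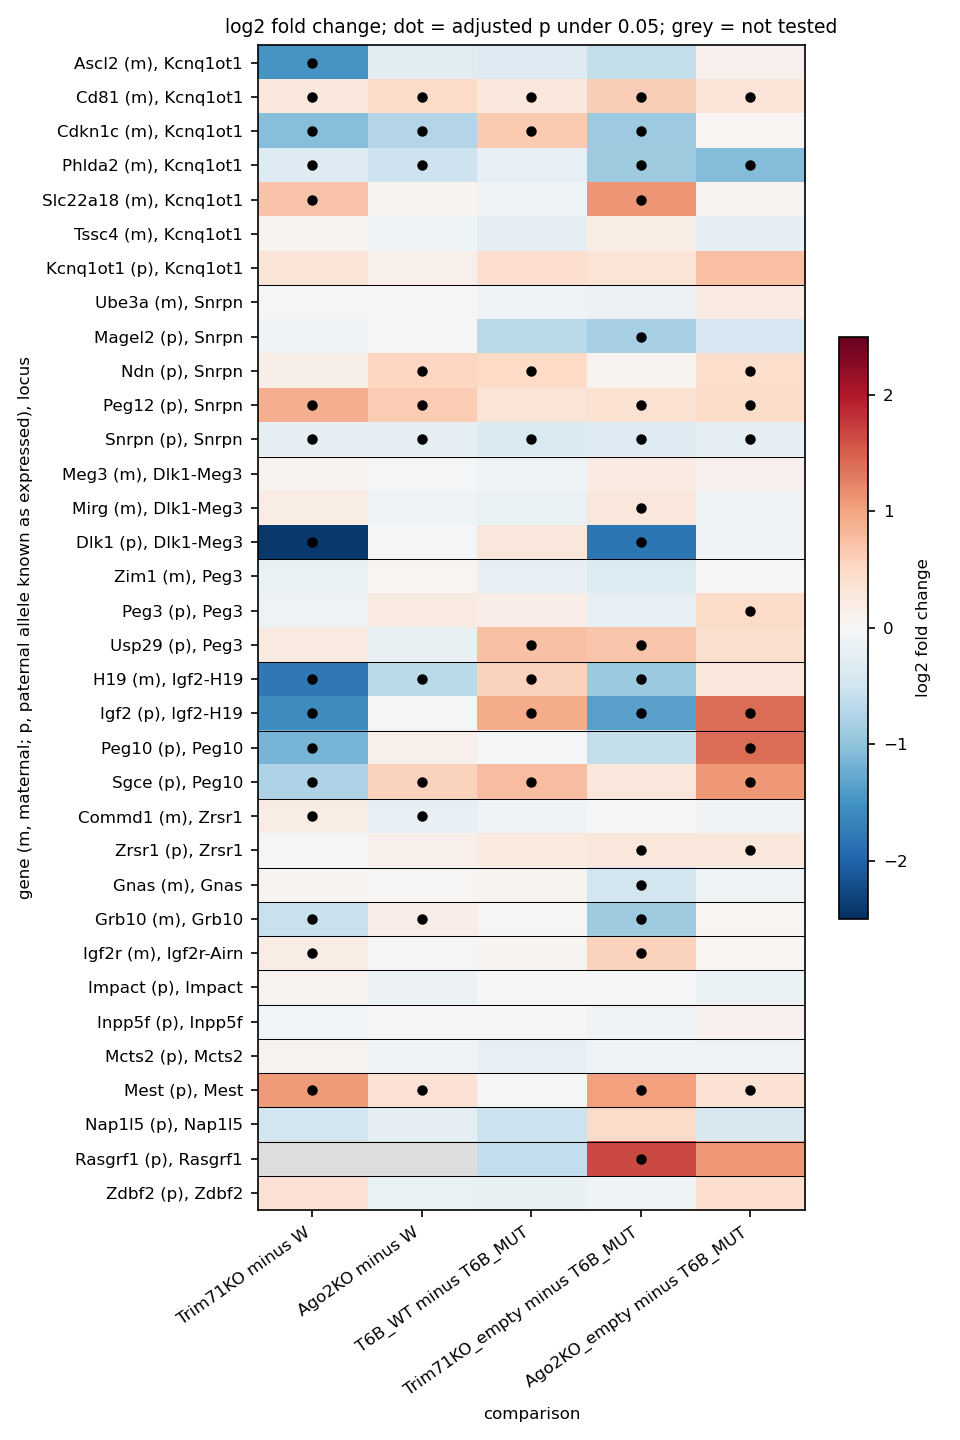
Log2 fold change (colour) of the 34 imprinted genes (rows, grouped by locus, m or p for the allele known to be expressed) in the 5 comparisons with a control (columns), with a black dot for an adjusted p under 0.05 and grey for not tested. Igf2-H19 and Dlk1 are blue in both Trim71 columns, Snrpn is called lower and Cd81 called higher in all 5 columns, and 10 genes carry no dot.

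Counting over these 5 comparisons, 18 of the 34 genes were called in at least 2, 6 in 1 and 10 in none. How often genes of any kind were called in several of them was not counted. Each comparison called 16.0% to 32.6% of all genes and shared its control libraries with others. Repeated calls are thus not by themselves particular to the list. Snrpn fell in all 5 and Cd81 rose in all 5. Calls in both directions were seen for 7 genes, H19, Igf2, Sgce, Cdkn1c, Grb10, Commd1 and Peg10. The 10 genes called in none of the 5 were Meg3, Zim1, Ube3a, Zdbf2, Impact, Kcnq1ot1, Tssc4, Nap1l5, Mcts2 and Inpp5f. A missing call does not show equal levels: for Kcnq1ot1 the standard error was between 0.21 and 0.34.

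At the Igf2-H19 locus, both genes fell in the Trim71 knockout of each experiment and both rose with T6B_WT. H19 (ENSMUSG00000000031, chr7:142575529-142578143, minus strand), a maternally expressed long noncoding RNA, stood at 3.24, 3.70 and 3.22 CPM in W, at 1.08, 0.862 and 0.999 in Trim71KO and at 2.29, 1.75 and 2.23 in Ago2KO. All 3 Trim71KO libraries lay below all Ago2KO libraries, which in turn lay below all W libraries. The decrease was -1.78 ± 0.15 (adjusted p = 8.03e-07) in Trim71KO and -0.68 ± 0.14 (adjusted p = 0.00305) in Ago2KO.

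In Experiment 2, H19 stood at 1.59, 1.32 and 1.35 CPM in T6B_MUT, at 1.87, 2.39 and 2.05 in T6B_WT, at 0.720, 0.613 and 0.893 in Trim71KO_empty and at 1.62, 1.64 and 1.95 in the libraries labelled Ago2KO_empty. T6B_WT lay above and Trim71KO_empty below T6B_MUT without overlap, and the libraries labelled Ago2KO_empty also lay just above it. H19 rose with T6B_WT, at 0.57 ± 0.17 (adjusted p = 0.0306), and fell in Trim71KO_empty, at -0.93 ± 0.20 (adjusted p = 0.00184). The T6B_WT call was lost without T6B_MUT replicate 1, 2 or 3 or without T6B_WT replicate 2 or 3 (0.45 to 0.64 over 12 alternatives, largest adjusted p = 0.159). In Ago2KO_empty H19 was not called (adjusted p = 0.234).

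Igf2 (ENSMUSG00000048583, chr7:142650766-142666816, minus strand) encodes the paternally expressed growth factor and lies 72.6 kb from H19. Its levels were 3.28, 4.0 and 3.6 CPM in W, 1.08, 1.28 and 1.27 in Trim71KO and 4.05, 3.37 and 3.24 in Ago2KO. Trim71KO was the low group, and Ago2KO overlapped W. Igf2 fell in Trim71KO (-1.58 ± 0.15, adjusted p = 1.63e-06) and was not called in Ago2KO (-0.03 ± 0.13, adjusted p = 0.918).

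In Experiment 2 the Igf2 level was 1.94, 1.80 and 1.59 CPM in T6B_MUT, 2.97, 3.77 and 3.33 in T6B_WT, 0.977, 0.321 and 0.754 in Trim71KO_empty and 4.32, 5.53 and 4.18 in the libraries labelled Ago2KO_empty. None of the 3 groups overlapped T6B_MUT: Trim71KO_empty lay below it and the other two above. Igf2 rose with T6B_WT (0.92 ± 0.20, adjusted p = 0.00408) and in Ago2KO_empty (1.39 ± 0.20, adjusted p = 6.34e-05), and fell in Trim71KO_empty (-1.35 ± 0.25, adjusted p = 0.000583). Without Ago2KO_empty replicate 1, 2 or 3 the increase was 1.43, 1.24 or 1.44, each still called. Igf2 overlaps Igf2os on the other strand and Gm49394 on its own strand, and how overlapping reads were counted is not given in the sources used here.

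**Figure D2:**
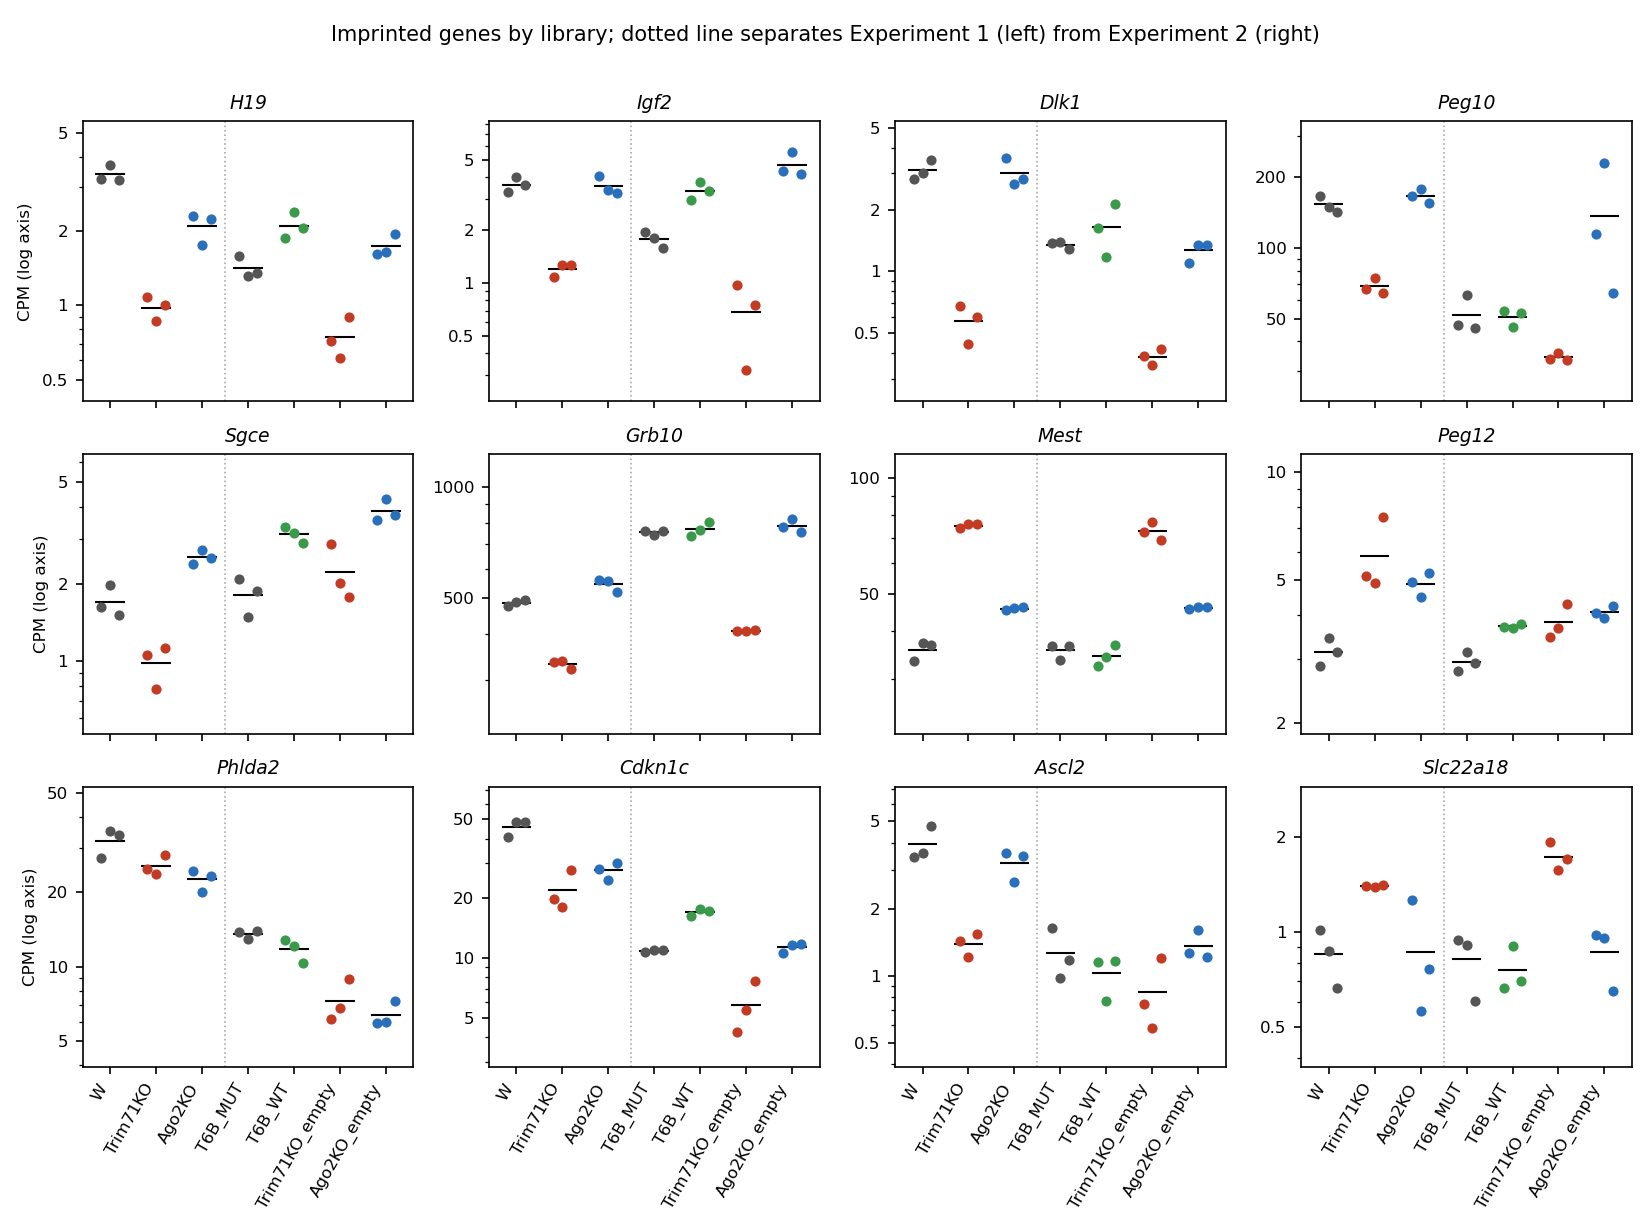
CPM (log axis) of 12 imprinted genes in each of the 21 libraries (points, 3 per group) with the group mean (line), Experiment 1 left and Experiment 2 right of the dotted line. H19, Igf2 and Dlk1 are lowest in the Trim71 knockout groups of both experiments, Mest is highest there, and Peg10 spreads from 64.1 to 230.2 CPM among the libraries labelled Ago2KO_empty.

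At the Dlk1-Meg3 locus the paternally expressed protein gene fell in the Trim71 knockouts while its maternally expressed noncoding neighbours Meg3 and Mirg were not called lower. Dlk1 (ENSMUSG00000040856, chr12:109452823-109463336, plus strand), a transmembrane protein related to Notch ligands, stood at 2.81, 3.02 and 3.49 CPM in W, at 0.678, 0.445 and 0.603 in Trim71KO and at 3.58, 2.67 and 2.81 in Ago2KO. Every Trim71KO library was below 1 CPM and every other library of the experiment above 2. The value of -2.42 ± 0.19 (adjusted p = 2.98e-07) was the largest decrease among the imprinted genes called in any of the 5 comparisons.

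Dlk1 in Experiment 2 stood at 1.37, 1.39 and 1.28 CPM in T6B_MUT, at 1.62, 1.17 and 2.13 in T6B_WT, at 0.386, 0.350 and 0.419 in Trim71KO_empty and at 1.1, 1.34 and 1.35 in the libraries labelled Ago2KO_empty. Trim71KO_empty was again apart from and below all other groups, at -1.80 ± 0.26 (adjusted p = 3.46e-05). Dlk1 was not called in Ago2KO, in Ago2KO_empty or with T6B_WT, where adjusted p was 0.915, 0.771 and 0.405. Meg3, a long noncoding RNA that begins 77.7 kb beyond the end of Dlk1, averaged 56.7 ± 4.46 CPM in W, 59.8 ± 7.13 in Trim71KO and 54.6 ± 4.59 in Ago2KO, and it was called in none of the comparisons. Mirg, a noncoding RNA that contains 14 microRNA hairpins of the RefSeq table, rose in Trim71KO_empty (0.28 ± 0.09, adjusted p = 0.0306), a call lost without T6B_MUT replicate 1 or 3 or without Trim71KO_empty replicate 1, 2 or 3 (0.16 to 0.38 over 12 alternatives, largest adjusted p = 0.211). The measured level of a host RNA is not the level of its microRNAs.

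Markers of primitive endoderm, a lineage that arises at low frequency in such cultures, were lower in sum than the control in every comparison group. The list holds 10 markers, all in the table, with Gata4, Gata6 and Sox17 among them. Their summed level was 54.1 to 54.7 CPM in W, 8.0 to 8.99 in Trim71KO and 14.6 to 16.2 in Ago2KO, and 8 of the 10 fell in each knockout. Over all genes, 15.6% fell in Trim71KO and 7.78% in Ago2KO. In Experiment 2 the sums were 32.8 to 33.3 in T6B_MUT, 26.4 to 29.8 in T6B_WT, 12.3 to 14.5 in Trim71KO_empty and 21.1 to 30.4 in the libraries labelled Ago2KO_empty, with 1, 6 and 4 of the 10 called lower against T6B_MUT and 0, 2 and 1 called higher. Of all genes, 6.69%, 13.4% and 12.4% were called lower there and 9.29%, 14.4% and 16.4% higher. No marker of the 10 was at 0 in any library. Of the imprinted genes, H19, Cdkn1c, Phlda2 and Snrpn fell in both knockouts of Experiment 1, where the marker sum was low. Igf2, Dlk1, Peg10 and Ascl2 fell in Trim71KO and had ranges that overlap W in Ago2KO. Sgce and Grb10 fell in Trim71KO and rose in Ago2KO. In T6B_WT, where the marker sum was below T6B_MUT, H19 and Igf2 rose and Snrpn fell. In the libraries labelled Ago2KO_empty, where it was also below, Igf2 rose and Phlda2 and Snrpn fell. The part of such cells in the levels of imprinted genes was not tested, and in bulk RNA fewer cells of a type and less RNA per cell cannot be told apart.

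The Kcnq1ot1 domain holds 7 of the genes, and its members changed in different directions. Ascl2 and Phlda2 lie 532.3 kb apart on chromosome 7, and Cdkn1c, Slc22a18 and Phlda2 are close neighbours: Slc22a18 begins 12.7 kb beyond Cdkn1c and ends 2.2 kb before Phlda2. In Trim71KO, 3 of the 7 fell (Ascl2, Cdkn1c and Phlda2), 2 rose (Slc22a18 and Cd81) and 2 were not called (Tssc4 and Kcnq1ot1). Trim71KO_empty gave 2 decreases (Cdkn1c and Phlda2) and the same 2 increases. Kcnq1ot1, the paternally expressed noncoding RNA that silences the domain in cis, averaged 45.5 ± 8.47 CPM in W, 56.9 ± 13 in Trim71KO and 49.6 ± 6.20 in Ago2KO.

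Cdkn1c (ENSMUSG00000037664, chr7:143458339-143461050, minus strand) encodes the cyclin-dependent kinase inhibitor p57. It stood at 40.6, 48.2 and 48.7 CPM in W, at 19.8, 18.2 and 27.8 in Trim71KO and at 28.2, 24.6 and 30.1 in Ago2KO. Both knockouts were below every W library and overlapped each other. The decreases were -1.06 ± 0.16 (adjusted p = 0.000786) in Trim71KO and -0.72 ± 0.15 (adjusted p = 0.011) in Ago2KO.

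In Experiment 2, Cdkn1c stood at 10.7, 11 and 11 CPM in T6B_MUT, at 16.4, 17.8 and 17.2 in T6B_WT, at 4.24, 5.49 and 7.65 in Trim71KO_empty and at 10.5, 11.6 and 11.8 in the libraries labelled Ago2KO_empty. It rose with T6B_WT (0.65 ± 0.13, adjusted p = 0.00244), opposite to its decrease in Ago2KO, and fell in Trim71KO_empty (-0.91 ± 0.14, adjusted p = 0.000125). The libraries labelled Ago2KO_empty overlapped T6B_MUT (adjusted p = 0.786). Gm44732 overlaps Cdkn1c on the other strand.

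Phlda2 (ENSMUSG00000010760, chr7:143501545-143503150, minus strand), which encodes a PH domain protein known to limit placental growth, fell in Trim71KO, Ago2KO, Trim71KO_empty and the libraries labelled Ago2KO_empty. It stood at 27.2, 35.3 and 33.8 CPM in W, 24.6, 23.6 and 28.2 in Trim71KO and 24.2, 20.0 and 23.1 in Ago2KO. The highest Trim71KO library exceeded the lowest W library, while Ago2KO lay wholly below W. The decrease of -0.33 ± 0.10 (adjusted p = 0.0243) in Trim71KO was lost without Trim71KO replicate 1 or 2 or without W replicate 2 or 3 (-0.44 to -0.26 over 12 alternatives, largest adjusted p = 0.102), and that in Ago2KO was -0.51 ± 0.10 (adjusted p = 0.00363).

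Phlda2 in Experiment 2 stood at 13.7, 12.9 and 13.9 CPM in T6B_MUT, 12.8, 12.1 and 10.3 in T6B_WT, 6.17, 6.80 and 8.90 in Trim71KO_empty and 5.93, 5.97 and 7.27 in the libraries labelled Ago2KO_empty. Both knockout groups lay wholly below the unedited groups and overlapped each other. The decreases were -0.89 ± 0.12 (adjusted p = 2.72e-05) and -1.08 ± 0.12 (adjusted p = 5.78e-06), and the latter stayed between -1.21 and -1.05 when any 1 of the libraries labelled Ago2KO_empty was left out. No call was made for T6B_WT (adjusted p = 0.289).

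Slc22a18 (ENSMUSG00000000154, chr7:143473736-143499334, plus strand), a transporter gene between these 2, behaved differently from both. It stood at 1.01, 0.872 and 0.665 CPM in W, at 1.41, 1.39 and 1.41 in Trim71KO and at 1.26, 0.561 and 0.762 in Ago2KO. In Experiment 2 it stood at 0.942, 0.911 and 0.606 in T6B_MUT, 0.663, 0.903 and 0.702 in T6B_WT, 1.93, 1.58 and 1.7 in Trim71KO_empty and 0.981, 0.958 and 0.649 in the libraries labelled Ago2KO_empty. The Trim71 knockout group was the highest in each experiment and the remaining groups overlapped their control. The increases were 0.72 ± 0.25 (adjusted p = 0.0359) in Trim71KO and 1.1 ± 0.22 (adjusted p = 0.000994) in Trim71KO_empty, and the former was lost without Trim71KO replicate 1, 2 or 3 or without W replicate 2 or 3 (0.57 to 0.87 over 12 alternatives, largest adjusted p = 0.141).

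Ascl2 (ENSMUSG00000009248, chr7:142966829-142969264, minus strand) encodes a transcription factor of the trophoblast. It stood at 3.45, 3.6 and 4.76 CPM in W, at 1.43, 1.22 and 1.54 in Trim71KO and at 3.6, 2.64 and 3.48 in Ago2KO, and only the Trim71KO libraries lay apart from W. Ascl2 fell there (-1.48 ± 0.17, adjusted p = 1.17e-05). In Experiment 2 all groups were low, with 1.65, 0.983 and 1.18 in T6B_MUT, 1.15, 0.767 and 1.17 in T6B_WT, 0.746, 0.584 and 1.20 in Trim71KO_empty and 1.28, 1.61 and 1.22 in the libraries labelled Ago2KO_empty. The ranges of Trim71KO_empty and T6B_MUT overlapped, and the value of -0.60 ± 0.27 (adjusted p = 0.108) was not called, although it was (-0.94, adjusted p = 0.0209) without Trim71KO_empty replicate 3. Of the 8 trophoblast markers in the table, among which Ascl2 is counted, Cdx2, Gata3, Hand1, Krt7 and Tfap2a were below 1 CPM in every library. Krt8 weighed most in the sum of the list, at 9.92 to 24.8 CPM over all libraries, beside 2.87 to 6.38 for Eomes. The list summed to 24.3 to 27.3 CPM in W, 18.8 to 21.4 in Trim71KO and 19.8 to 21.5 in Ago2KO. In Experiment 2 the trophoblast sums were 26.3 to 27.5 CPM in T6B_MUT, 26.0 to 31.7 in T6B_WT, 27.6 to 32.5 in Trim71KO_empty and 22.5 to 22.9 in the libraries labelled Ago2KO_empty, so that Trim71KO lay below its control and Trim71KO_empty just above. Of the markers tested, 1 rose and 4 fell of 8 in Trim71KO and 1 rose and 1 fell of 6 in Trim71KO_empty. Over all genes, 16.9% rose and 15.6% fell in Trim71KO, and 14.4% and 13.4% in Trim71KO_empty. The part of these markers in the levels of imprinted genes was not tested.

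Cd81 rose in every comparison with a control. It averaged 149 ± 3.12 CPM in W, 178 ± 14.2 in Trim71KO and 206 ± 5.40 in Ago2KO, and in Experiment 2 213 ± 7.17 in T6B_MUT, 255 ± 12.8 in T6B_WT, 326 ± 35.7 in Trim71KO_empty and 266 ± 22.7 in the libraries labelled Ago2KO_empty. No comparison group overlapped its control. The increases ran from 0.26 in Trim71KO to 0.62 in Trim71KO_empty, with 0.47 ± 0.06 (adjusted p = 4.2e-05) in Ago2KO. The T6B_WT call (0.26 ± 0.08) was lost without T6B_MUT replicate 1, 2 or 3 or without T6B_WT replicate 1 or 2 (0.22 to 0.29 over 12 alternatives, largest adjusted p = 0.146). That of Ago2KO_empty (0.32 ± 0.08) was lost without Ago2KO_empty replicate 1 (0.25 to 0.37 over 12 alternatives, largest adjusted p = 0.0603). Cd81 overlaps R74862 on the other strand.

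The Peg10-Sgce pair shares 1 control region, and the 2 genes start 98 bases apart on opposite strands. Peg10 (ENSMUSG00000092035, chr6:4747306-4760517, plus strand), a paternally expressed gene derived from a retrotransposon, stood at 167, 149.8 and 142 CPM in W, at 66.6, 74.6 and 64.4 in Trim71KO and at 166, 178 and 155 in Ago2KO. Sgce (ENSMUSG00000004631, chr6:4674350-4747207, minus strand), which encodes epsilon sarcoglycan, stood at 1.63, 1.98 and 1.52 CPM in W, at 1.05, 0.778 and 1.12 in Trim71KO and at 2.40, 2.71 and 2.54 in Ago2KO. Trim71KO was below W for both, while Ago2KO was above W for Sgce and overlapped it for Peg10. Both fell in Trim71KO, Peg10 at -1.16 ± 0.07 (adjusted p = 3.42e-08) and Sgce at -0.78 ± 0.18 (adjusted p = 0.00357). In Ago2KO Peg10 was not called (adjusted p = 0.282) and Sgce rose (0.57 ± 0.16, adjusted p = 0.0194), a call lost without Ago2KO replicate 2 or 3 or without W replicate 1 or 3 (0.49 to 0.69 over 12 alternatives, largest adjusted p = 0.0908).

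In Experiment 2, Peg10 stood at 47.0, 62.7 and 45.6 CPM in T6B_MUT, 53.7, 46.1 and 52.7 in T6B_WT, 33.5, 35.8 and 33.3 in Trim71KO_empty and 115, 230.2 and 64.1 in the libraries labelled Ago2KO_empty. The Trim71KO_empty values lay just below T6B_MUT and the Ago2KO_empty values above it, the latter with a wide spread. The value of -0.60 ± 0.40 in Trim71KO_empty was not called in the fit of all 12 libraries (adjusted p = 0.317). When only Trim71KO_empty and T6B_MUT were fitted, the same value of -0.60 was called, with an SE of 0.11 and an adjusted p of 0.00124. The increase of 1.40 ± 0.40 (adjusted p = 0.031) in Ago2KO_empty was lost without Ago2KO_empty replicate 1 or 2 or without T6B_MUT replicate 1, 2 or 3 or when only the 2 groups were fitted (0.77 to 1.71 over 12 alternatives, largest adjusted p = 0.141). It was 0.77 (adjusted p = 0.0511) without replicate 2, 1.48 (adjusted p = 0.0592) without replicate 1 and 1.71 (adjusted p = 0.00235) without replicate 3.

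Sgce spread less across the same libraries. It stood at 2.10, 1.49 and 1.87 CPM in T6B_MUT, 3.34, 3.18 and 2.89 in T6B_WT, 2.88, 2.01 and 1.79 in Trim71KO_empty and 3.56, 4.30 and 3.74 in the libraries labelled Ago2KO_empty. T6B_WT and Ago2KO_empty lay wholly above T6B_MUT, and Trim71KO_empty overlapped it. The gene rose with T6B_WT (0.78 ± 0.17, adjusted p = 0.00447) and in Ago2KO_empty (1.08 ± 0.17, adjusted p = 0.000178), the latter between 0.97 and 1.11 without any 1 of those libraries. Trim71KO_empty gave 0.29 ± 0.18 (adjusted p = 0.258), which was not called.

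The Snrpn domain on chromosome 7 contributes 5 genes. Snrpn fell in all 5 comparisons by a small amount: it averaged 168 ± 3.36 CPM in W, 143 ± 2.34 in Trim71KO and 143 ± 0.902 in Ago2KO, and 125 ± 5.59 in T6B_MUT, 97.5 ± 3.25 in T6B_WT, 101 ± 8.04 in Trim71KO_empty and 106 ± 8.83 in the libraries labelled Ago2KO_empty. The decreases lay between -0.36 and -0.23, and no group overlapped its control. The one in Ago2KO_empty (-0.24 ± 0.07, adjusted p = 0.0173) was lost without T6B_MUT replicate 1 (-0.33 to -0.21 over 12 alternatives, largest adjusted p = 0.0612). Reads of Snrpn and the overlapping Snurf cannot be told apart here. Ndn, which encodes necdin, rose in Ago2KO (0.53 ± 0.09, adjusted p = 0.000548), with T6B_WT (0.49 ± 0.11) and in Ago2KO_empty (0.45 ± 0.11), the last between 0.40 and 0.45 without any 1 of those libraries. It was not called in either Trim71 comparison with a control.

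Peg12 (ENSMUSG00000070526, chr7:62461871-62464510, minus strand), a FRAT family gene of the same domain, stood at 2.87, 3.45 and 3.14 CPM in W, 5.12, 4.92 and 7.49 in Trim71KO and 4.95, 4.49 and 5.22 in Ago2KO. In Experiment 2 it stood at 2.79, 3.14 and 2.93 in T6B_MUT, 3.68, 3.68 and 3.77 in T6B_WT, 3.47, 3.68 and 4.30 in Trim71KO_empty and 4.05, 3.91 and 4.23 in the libraries labelled Ago2KO_empty. Every group lay above its control. It rose in Trim71KO (0.90 ± 0.15, adjusted p = 0.000345), in Ago2KO (0.64 ± 0.15), in Trim71KO_empty (0.37 ± 0.12) and in Ago2KO_empty (0.46 ± 0.12), while the T6B_WT value was not called (adjusted p = 0.0716). The third of these was lost without T6B_MUT replicate 1 or 3 or without Trim71KO_empty replicate 3 (0.27 to 0.43 over 12 alternatives, largest adjusted p = 0.155), and the fourth without T6B_MUT replicate 1 (0.41 to 0.49 over 12 alternatives, largest adjusted p = 0.0599). Magel2, a MAGE family gene, fell in Trim71KO_empty (-0.84 ± 0.24, adjusted p = 0.0154), a call lost without T6B_MUT replicate 2 or without Trim71KO_empty replicate 2 (-1.01 to -0.70 over 12 alternatives, largest adjusted p = 0.0685). Ube3a, the ubiquitin ligase gene of the domain, was called against no control.

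The Peg3 locus gave few calls. Peg3, a paternally expressed zinc finger gene, averaged 32.9 ± 0.327 CPM in T6B_MUT and 45.8 ± 6.38 in the libraries labelled Ago2KO_empty, an increase of 0.48 ± 0.09 (adjusted p = 0.000508) that stayed called, between 0.36 and 0.55, without any 1 of them. Usp29 (ENSMUSG00000051527, chr7:6730578-6967219, plus strand) starts 146 bases from Peg3 on the other strand and stood near 1 CPM, at 1.09, 1.13 and 0.790 in W, 1.20, 1.22 and 1.1 in Trim71KO and 1.18, 0.859 and 0.625 in Ago2KO. In Experiment 2 it stood at 0.785, 0.480 and 0.641 in T6B_MUT, 1.20, 0.948 and 1.04 in T6B_WT, 1.08, 1.05 and 0.977 in Trim71KO_empty and 0.956, 0.958 and 0.623 in the libraries labelled Ago2KO_empty. T6B_WT and Trim71KO_empty lay above T6B_MUT, at 0.73 ± 0.23 (adjusted p = 0.039) and 0.69 ± 0.24 (adjusted p = 0.0356). The T6B_WT call was lost without T6B_MUT replicate 2 or 3 or without T6B_WT replicate 1, 2 or 3 or with DESeq2 (0.57 to 0.89 over 12 alternatives, largest adjusted p = 0.163). That of Trim71KO_empty was lost without T6B_MUT replicate 2 or 3 or without Trim71KO_empty replicate 1, 2 or 3 or with DESeq2 (0.54 to 0.86 over 12 alternatives, largest adjusted p = 0.136).

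Mest rose and Grb10 fell in the Trim71 knockout of each experiment. Mest (ENSMUSG00000051855, chr6:30723547-30748465, plus strand), a paternally expressed hydrolase family gene that hosts miR-335, stood at 33.4, 37.1 and 36.9 CPM in W, 74.0, 75.8 and 76.0 in Trim71KO and 45.4, 45.8 and 46.1 in Ago2KO. Its values in Experiment 2 were 36.6, 33.6 and 36.6 in T6B_MUT, 32.4, 34.2 and 36.8 in T6B_WT, 72.5, 77.0 and 68.9 in Trim71KO_empty and 45.6, 46.3 and 46.2 in the libraries labelled Ago2KO_empty. In each experiment the Trim71 knockout was highest, and the Ago2KO libraries and those labelled Ago2KO_empty came second. None of these groups overlapped its control. The increases of Mest were 1.07 ± 0.05 (adjusted p = 2.9e-09) in Trim71KO and 1.03 ± 0.07 (adjusted p = 4.05e-09) in Trim71KO_empty, and 0.35 ± 0.05 and 0.37 ± 0.07 in Ago2KO and Ago2KO_empty, while T6B_WT overlapped T6B_MUT (adjusted p = 0.712). The increase in Ago2KO_empty was between 0.34 and 0.36, and still called, without any 1 of those libraries. Copg2 overlaps Mest on the other strand.

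Grb10 (ENSMUSG00000020176, chr11:11930508-12038683, minus strand), maternally expressed outside neurons, stood at 475, 488 and 493 CPM in W, 335, 338 and 322 in Trim71KO and 562, 558 and 520.2 in Ago2KO. Trim71KO lay below W and Ago2KO slightly above it. In Experiment 2 its values were 761, 742 and 761 in T6B_MUT, 737, 763 and 803 in T6B_WT, 407, 408 and 411 in Trim71KO_empty and 777, 818 and 754 in the libraries labelled Ago2KO_empty. Only Trim71KO_empty stood apart from T6B_MUT there. Grb10 fell in Trim71KO (-0.55 ± 0.04, adjusted p = 3.51e-07) and in Trim71KO_empty (-0.88 ± 0.06, adjusted p = 8.27e-09). Its increase in Ago2KO (0.17 ± 0.04, adjusted p = 0.0137) was lost without Ago2KO replicate 2 or without W replicate 2 (0.15 to 0.20 over 12 alternatives, largest adjusted p = 0.058).

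Other genes of single loci gave smaller or single calls. Igf2r, the receptor that carries IGF2 to lysosomes, rose in Trim71KO_empty (0.57 ± 0.07, adjusted p = 5.77e-06) and in Trim71KO (0.18 ± 0.06, adjusted p = 0.0254). The latter groups overlapped, and the call was lost without Trim71KO replicate 1 or 2 or without W replicate 2 or 3 (0.15 to 0.24 over 12 alternatives, largest adjusted p = 0.128). Its mean went from 194 ± 5.53 to 288 ± 28.9 CPM in Experiment 2. Gnas, the gene of the stimulatory G protein alpha subunit, fell in Trim71KO_empty (-0.46 ± 0.06, adjusted p = 2.03e-05) and was called in no other comparison with a control. Zrsr1, a retrogene inside an intron of Commd1, rose in Trim71KO_empty (0.28 ± 0.09, adjusted p = 0.0244), lost without T6B_MUT replicate 1 or 3 or without Trim71KO_empty replicate 1 or 2 (0.21 to 0.35 over 12 alternatives, largest adjusted p = 0.149). It also rose in Ago2KO_empty (0.29 ± 0.09, adjusted p = 0.0191), lost without Ago2KO_empty replicate 1 or 3 or without T6B_MUT replicate 1 or 3 (0.21 to 0.36 over 12 alternatives, largest adjusted p = 0.151). Commd1 rose in Trim71KO (0.18 ± 0.05, adjusted p = 0.0113), lost without W replicate 2 (0.17 to 0.20 over 12 alternatives, largest adjusted p = 0.0508), and fell in Ago2KO (-0.20 ± 0.05, adjusted p = 0.0131), lost without W replicate 3 (-0.23 to -0.18 over 12 alternatives, largest adjusted p = 0.0545).

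Rasgrf1 (ENSMUSG00000032356, chr9:89909908-90026977, plus strand), a Ras exchange factor gene, was close to the lower limit of the data. Its counts in Experiment 2 were 6, 6 and 3 in T6B_MUT, 3, 2 and 3 in T6B_WT, 16, 9 and 10 in Trim71KO_empty and 8, 10 and 7 in the libraries labelled Ago2KO_empty. In CPM the group means were 0.105, 0.0656, 0.318 and 0.217 in that order. Trim71KO_empty and the libraries labelled Ago2KO_empty lay above T6B_MUT. Only the former was called (1.64 ± 0.45, adjusted p = 0.00959), and the call was lost without T6B_MUT replicate 3 or without Trim71KO_empty replicate 1 (1.27 to 1.90 over 11 alternatives, largest adjusted p = 0.0678).

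The genes called against no control covered the range of levels. Impact, a regulator of translation, averaged 106 ± 7.39 CPM in Trim71KO and 90.9 ± 5.35 in Ago2KO, with the mean of W between them. Ube3a averaged 169 ± 22.2 CPM in W, 164 ± 13.3 in Trim71KO and 170.1 ± 17.9 in Ago2KO. Zdbf2 averaged 141 ± 22.6, 181 ± 29.4 and 125 ± 14.7 CPM in the same order. Tssc4 averaged 27.0 ± 1.34 CPM in W and 25.3 ± 2.26 in T6B_MUT, Mcts2 24.8 ± 1.07 and 24.1 ± 0.783, Inpp5f, a phosphoinositide phosphatase gene, 24.3 ± 0.686 and 25.4 ± 1.02, and Nap1l5, a nucleosome assembly family gene, 0.336 ± 0.137 and 0.531 ± 0.0342. Zim1, a zinc finger gene of the Peg3 locus, was low too, at 0.376 ± 0.0709 and 0.459 ± 0.127 CPM.

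Set out by the allele known to be expressed, the increases in the libraries labelled Ago2KO_empty were mostly of paternally expressed genes. Of the 19 paternally expressed genes, 8 rose and 1 fell there, and of the 15 maternally expressed genes 1 rose and 1 fell, where 16.4% of all genes rose and 12.4% fell. Of the 8, the calls of Peg10, Peg12 and Zrsr1 were lost when 1 library was left out, and so was that of Cd81, the 1 maternal increase. In Ago2KO the paternal genes gave 4 increases and 1 decrease of 18, and the maternal genes 2 and 4 of 15. Trim71KO gave 2 increases and 5 decreases among paternal genes and 4 and 5 among maternal genes. Trim71KO_empty gave 5 increases and 4 decreases among paternal genes and 4 and 5 among maternal genes. With T6B_WT, 4 paternal genes rose and 1 fell, and 3 maternal genes rose. The all-gene shares of these comparisons were given above. These counts are a description, and no difference between the 2 classes was tested.

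The knockouts were also contrasted with each other, in the same fits of all libraries of each experiment, so the control libraries entered the estimate of the spread. In Trim71KO against Ago2KO, 7 of 33 imprinted genes were higher and 10 lower, where 17.1% of all genes were higher and 17.1% lower (34.2% in either direction). In Trim71KO_empty against Ago2KO_empty, 6 of 34 were higher and 11 lower, where the shares of all genes were 14.7% and 16.9% (31.6%). Of the genes called in both, H19, Igf2, Dlk1, Peg3, Peg10, Sgce, Ndn and Grb10 were lower in the Trim71 knockout of each experiment and Igf2r, Mirg and Mest higher. Genes called in the direct comparison of 1 experiment alone were Ascl2 (-1.22), Commd1 (0.38), Impact (0.23), Mcts2 (0.20) and Zdbf2 (0.53) in Experiment 1 and Cdkn1c (-0.97), Gnas (-0.32), Slc22a18 (1.01), Tssc4 (0.41) and Ube3a (-0.35) in Experiment 2. Cd81 was lower in Trim71KO than in Ago2KO (-0.21) and higher in Trim71KO_empty than in Ago2KO_empty (0.29). Among the calls shared by both, that of Mirg in Experiment 1 (0.30 ± 0.10, adjusted p = 0.0483) had overlapping ranges and was lost in 8 of 12 alternatives, that of fitting only the 2 groups among them. The calls in Experiment 1 alone were lost for Impact without Ago2KO replicate 1 or without Trim71KO replicate 2 (0.17 to 0.28 over 12 alternatives, largest adjusted p = 0.061), for Mcts2 without Ago2KO replicate 1 (0.17 to 0.23 over 12 alternatives, largest adjusted p = 0.0623) and for Zdbf2 without Ago2KO replicate 1 or 3 or without Trim71KO replicate 1 or 2 (0.41 to 0.65 over 12 alternatives, largest adjusted p = 0.12). That of Ube3a in Experiment 2 was lost without Ago2KO_empty replicate 2 or without Trim71KO_empty replicate 3 (-0.44 to -0.25 over 12 alternatives, largest adjusted p = 0.069). In Experiment 2 the call of Peg10 (-1.99 ± 0.41, adjusted p = 0.00623) was lost when only the 2 groups were fitted (-2.31 to -1.38 over 12 alternatives, largest adjusted p = 0.0659), that of Ndn (-0.35 ± 0.11, adjusted p = 0.0171) without Trim71KO_empty replicate 2 or when only the 2 groups were fitted (-0.42 to -0.20 over 12 alternatives, largest adjusted p = 0.121), and that of Cd81 without Trim71KO_empty replicate 1 (0.22 to 0.36 over 12 alternatives, largest adjusted p = 0.051). The largest differences were -2.38 ± 0.19 (adjusted p = 3.13e-07) for Dlk1 in Experiment 1 and -2.75 ± 0.24 (adjusted p = 7.91e-08) for Igf2 in Experiment 2.

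Comparisons of different experiments share no library and could be set against each other. The knockout groups of both experiments are described as Trim71-/- or Ago2-/- cells, with the number of clones not given. The edit and other traits of a line therefore cannot be told apart in the calls they share. Of the imprinted genes tested in both, 16 were called in Trim71KO and 17 in Trim71KO_empty, and 12 in both (75.0% and 70.6%), all 12 in the same direction. Over all genes, 3294 were called in both (48.2% and 56.5% of the calls), with 94.0% in the same direction. For Ago2KO and Ago2KO_empty, 7 genes were called in both (63.6% of each), Sgce, Ndn, Peg12, Mest and Cd81 higher and Snrpn and Phlda2 lower in each. All-gene shares there were 64.8% and 41.2%, with 97.1% of 2449 genes in the same direction.

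Ago2KO and T6B_WT, which both act on Argonaute function, called 6 imprinted genes in common. Sgce, Ndn and Cd81 rose in both and Snrpn fell in both, whereas H19 and Cdkn1c fell in Ago2KO and rose with T6B_WT. Among 1615 genes of any kind called in both, 95.3% had the same direction. Trim71KO and T6B_WT also called 6 in common. Of these, Snrpn and Cd81 had the same direction, and H19, Igf2, Sgce and Cdkn1c fell in Trim71KO and rose with T6B_WT, beside 51.2% of 1593 genes of any kind with the same direction.

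**Figure D3:**
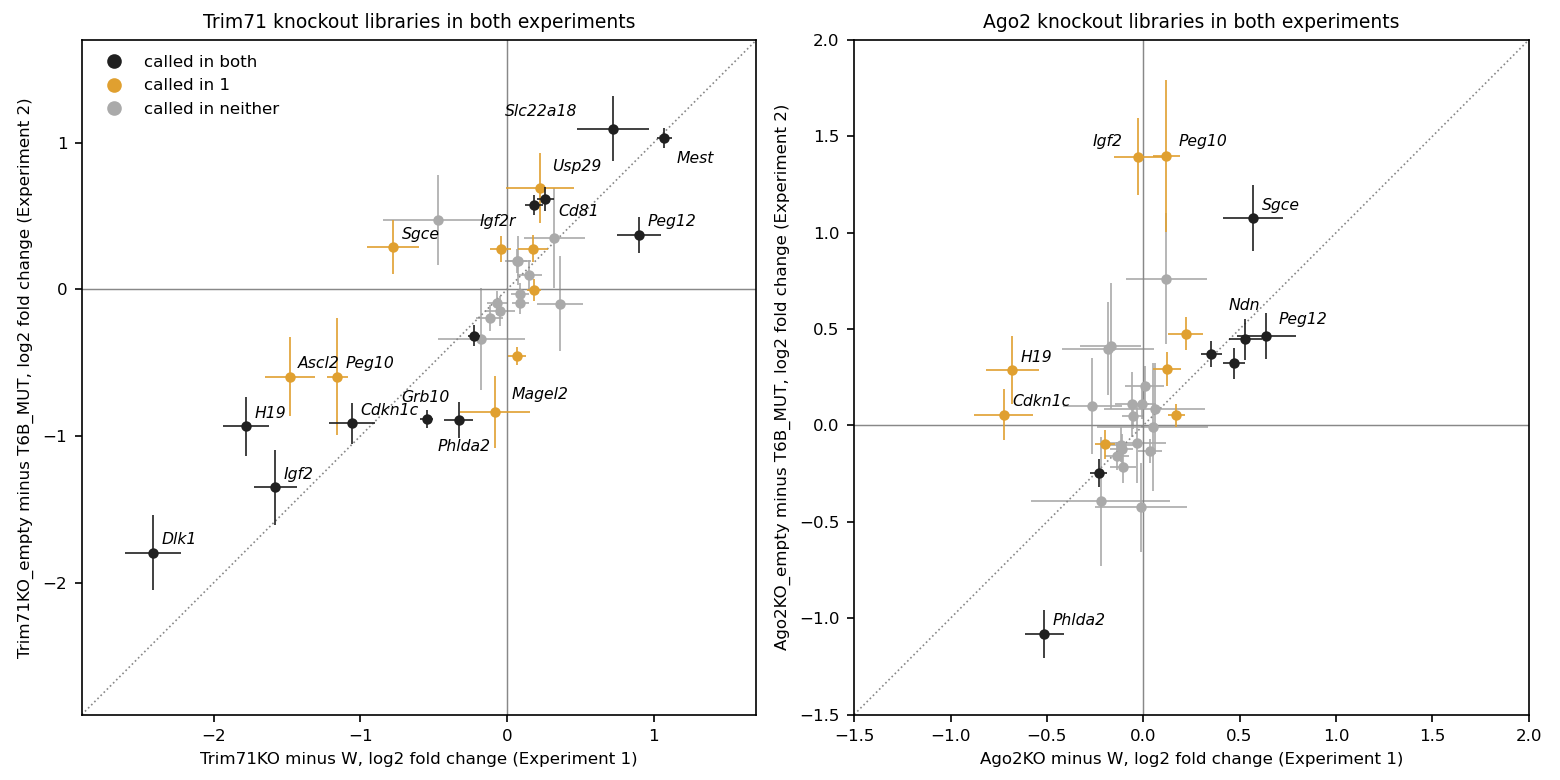
Log2 fold change (± SE) of each imprinted gene in Experiment 1 (horizontal) against Experiment 2 (vertical) for the groups labelled as Trim71 knockout (left) and as Ago2 knockout (right), with the dotted line marking equal values. Points called in both experiments (black) keep their sign in both panels, while Igf2 and Peg10 on the right are near 0 in Experiment 1 and near 1.4 in Experiment 2.

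The difference between experiments was tested directly in a fit of all 21 libraries, as the value of the groups labelled as a knockout in Experiment 2 minus that in Experiment 1. For the Trim71 knockout, 4 imprinted genes were called higher and 3 lower of 34, where 5.04% and 5.01% of all genes were (10.1% in either direction). Sgce differed most, by 1.07 ± 0.26 (adjusted p = 0.00835), followed by H19 with 0.85 ± 0.26 (adjusted p = 0.0334), a call lost without T6B_MUT replicate 2 or 3 or without Trim71KO replicate 2 or 3 or without Trim71KO_empty replicate 1 or 3 or without W replicate 2 or with the replicate block (0.70 to 0.99 over 18 alternatives, largest adjusted p = 0.123). Between Ago2KO_empty and Ago2KO, 2 were called higher and 0 lower, where 1.46% and 0.669% of all genes were (2.13%). These were Igf2, with 1.41 ± 0.24 (adjusted p = 0.00104), and H19, with 0.96 ± 0.22 (adjusted p = 0.018). The H19 call was lost without Ago2KO replicate 2 or without T6B_MUT replicate 2 or 3 or without W replicate 2 (0.84 to 1.03 over 18 alternatives, largest adjusted p = 0.0536). Since Ago2 fell in Ago2KO but was not called in Ago2KO_empty, whether both groups carry the same knockout cannot be told from its transcript. For Ago2 itself the difference was 1.45 ± 0.41 (adjusted p = 0.0977), which was not called. Plasmid, control group and experiment cannot be told apart in these differences.

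Several genes spread widely among the libraries labelled Ago2KO_empty. Replicate 2 had the highest and replicate 3 the lowest level of Ago2, and Peg10 followed that order with 115, 230.2 and 64.1 CPM. Zdbf2, a paternally expressed zinc finger gene, did so too, at 255, 379.7 and 131 CPM against 174, 221 and 181 in T6B_MUT. Kcnq1ot1 stood at 114, 111 and 50.2, with replicate 3 low and the other two high. Other genes varied little there: Mest stood at 45.6, 46.3 and 46.2 CPM and Grb10 at 777, 818 and 754. What sets these libraries apart was not tested.

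**Figure D4:**
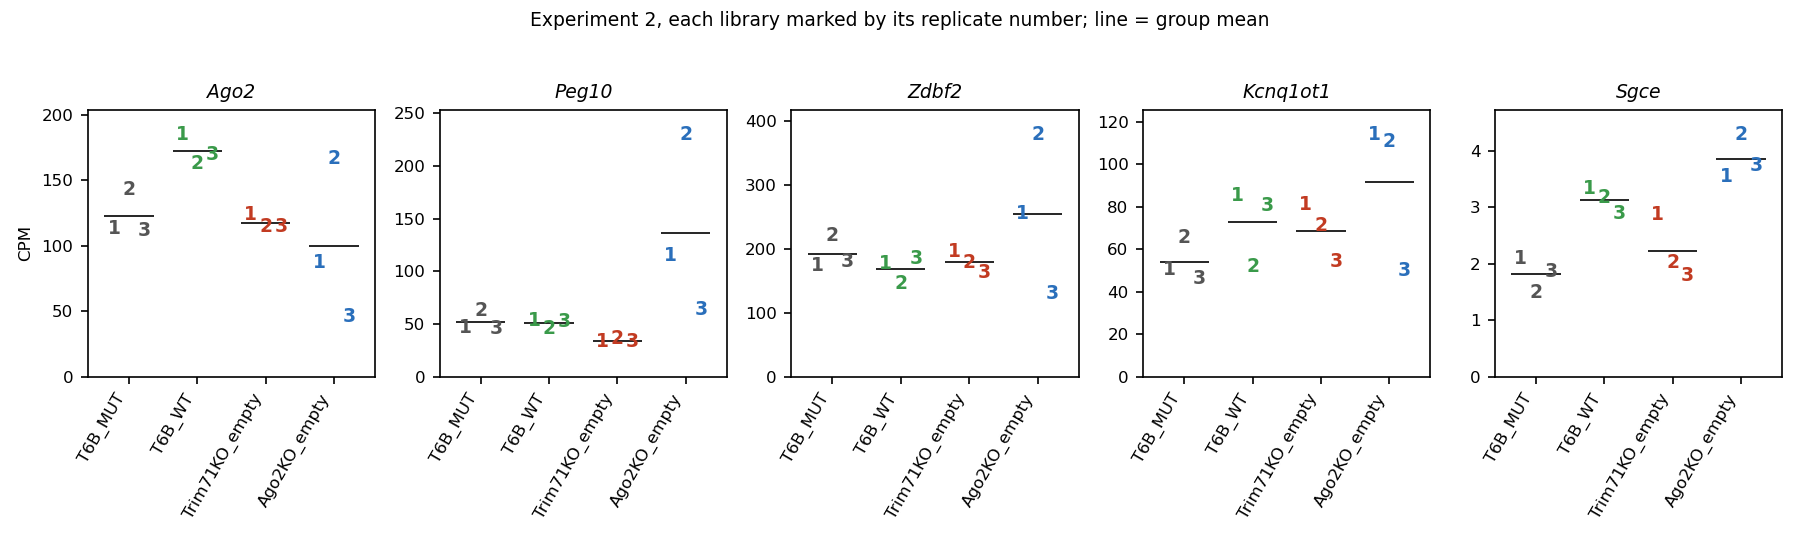
CPM of Ago2 and of 4 imprinted genes in the 12 libraries of Experiment 2, each library drawn as its replicate number, with the group mean as a line. Replicates 1 to 3 of the libraries labelled Ago2KO_empty run in the order 2, 1, 3 from high to low for Ago2, Peg10 and Zdbf2, and Sgce lies above T6B_MUT in all 3.

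Genes with and without the seed site were set side by side. In Ago2KO, 0 of the 6 imprinted genes with AGCACTT in the 3′ UTR rose and 1 fell, against 6 and 3 of the 23 tested without it. With T6B_WT, 1 of 6 rose and 0 fell, against 5 and 1 of 24. In the libraries labelled Ago2KO_empty 2 of 6 rose (Peg10 and Zrsr1) and 0 fell, against 7 and 2 of 24. The median log2 fold change was -0.04 with and -0.01 without the site in Ago2KO, -0.01 and -0.02 with T6B_WT, and 0.14 and 0.09 in Ago2KO_empty. Over all genes, 10.2% rose and 7.78% fell in Ago2KO, 9.29% and 6.69% with T6B_WT, and 16.4% and 12.4% in Ago2KO_empty.

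The hexamer TGCCGC, which the imprint protector ZFP57 is known to bind when methylated, was searched on both strands (GCGGCA on the other) in RefSeq promoter windows, from 250 bases before to 50 after each start on GRCm38.p6. It was found for 10 of 29 imprinted genes with a window (34.5%) and for 3527 of 27025 genes (13.1%). Some genes have several windows, and counted by window it was found in 11 of 44 (25.0%) and in 3813 of 32851 (11.6%). Member windows were also richer in CpG, with a median of 15.5 CG dinucleotides per window against 7 over all windows, so these shares are not those of like windows. The hexamers of 4 genes called above are shown in capitals, as the strand of the gene reads.
Mest (chr6:30737971-30738000, plus strand): aggaggggcgctGCGGCAggatgggcgggt
Snrpn (chr7:60005184-60005213, minus strand): gacccctgcattGCGGCAaaaatgtgcgca
Igf2 (chr7:142661224-142661253, minus strand): tacggtgtcccaGCGGCAgcacagattttg
Grb10 (chr11:12037379-12037408, minus strand): gggtgcggggagGCGGCAggaagggaaggg
Of these 4, Mest rose and the other 3 fell in Trim71KO, so genes with the hexamer were found on both sides. The remaining 6 with a match were Zdbf2, Mcts2, Nap1l5, Zim1, Commd1 and Meg3, of which Commd1 was called against a control. A match does not show binding, and methylation was not measured.

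Factors known to set or keep imprints were examined together with Trim71, Lin28a, Lin28b and Igf2bp1 to Igf2bp3, genes of RNA-binding proteins. This list held 34 symbols, of which 33 were in the table. The edited Trim71 is itself counted among the decreases in Trim71KO (-0.50) and in Trim71KO_empty (-0.29). In Trim71KO 10 rose and 10 fell of 33 (all genes 16.9% and 15.6%), in Ago2KO 2 and 7 (10.2% and 7.78%) and with T6B_WT 1 and 4 (9.29% and 6.69%). In Trim71KO_empty 4 rose and 8 fell (all genes 14.4% and 13.4%), and in Ago2KO_empty 4 and 3 (16.4% and 12.4%). The largest decreases in Trim71KO were of Dppa3 (-1.87 ± 0.44, from 0.508 ± 0.0627 to 0.136 ± 0.0958 CPM), which protects maternal methylation in the zygote and was close to the lower limit here, of Dnmt3l (-1.5 ± 0.04), the cofactor of de novo methylation, and of the methyltransferase gene Dnmt3a (-1.27 ± 0.05). Dnmt3a went from 264 ± 6.99 to 109 ± 2.76 CPM in Experiment 1 and from 107 ± 4.0 in T6B_MUT to 49.0 ± 2.89 in Trim71KO_empty (-1.13 ± 0.09). In the latter, Lin28a fell (-0.87 ± 0.08) and Tet2, a dioxygenase gene of demethylation, rose (0.80 ± 0.15).

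In the other comparisons the largest changes of that list were smaller. Lin28b (-0.64), Zfp445 (-0.27) and Trim71 (-0.25) fell in Ago2KO. Dnmt3l (-0.51), Lin28a (-0.35) and Zfp57 (-0.25) fell with T6B_WT. Igf2bp3 fell (-0.57) and Rif1 (0.46) and Khdc3 (0.44) rose in the libraries labelled Ago2KO_empty. Whether these levels bear on those of the imprinted genes was not tested.

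A further 55 symbols known or reported as imprinted in some tissue, 43 of them in the table, were counted in the same way. In Trim71KO 7 rose and 13 fell of 40 tested (all genes 16.9% and 15.6%), the increases thus near the background. In Ago2KO 8 rose and 4 fell (10.2% and 7.78%), and with T6B_WT 7 and 2 of 42 (9.29% and 6.69%). In Trim71KO_empty 13 rose and 4 fell (all genes 14.4% and 13.4%), and in Ago2KO_empty 13 and 2 (16.4% and 12.4%). Zim2, a zinc finger gene of the Peg3 locus, rose most in both Trim71 comparisons, from 0.216 ± 0.0409 to 1.04 ± 0.274 CPM (2.24 ± 0.30, adjusted p = 5.15e-05) and from 0.165 ± 0.0477 to 1.16 ± 0.210 CPM (2.83 ± 0.33, adjusted p = 4.56e-06). Ampd3, an AMP deaminase gene, rose in both as well (1.37 and 1.41), Th, the tyrosine hydroxylase gene next to Igf2, fell in Trim71KO (-1.40) and Atp10a fell in Trim71KO_empty (-1.33). In Ago2KO the largest changes were those of the edited Ago2 itself (-1.76), Tspan32 (0.85) and Ddc (0.59), and with T6B_WT those of Ddc (0.81), Phactr2 (0.75) and Calcr (0.65).

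In the libraries labelled Ago2KO_empty, the leading changes were increases of Xist (3.01 ± 0.63, adjusted p = 0.00717), Pon3 (0.88) and Smoc1 (0.79). Xist, the noncoding RNA of X inactivation, stood at 2.92, 3.94 and 0.857 CPM there and at 0.137, 0.551 and 0.294 in T6B_MUT. Replicates 1 and 2 were the highest of all 21 libraries, and the increase rests mainly on them. The 9 chromosomes that carry the 34 genes had median log2 fold changes within -0.07 and 0.08 in all 7 comparisons within an experiment. Other chromosomes went beyond this. Chromosome 8 had a median of 0.19 in Trim71KO (39.3% of its genes higher) and 0.09 in Trim71KO_empty (23.3% higher). Chromosome 10 had -0.09 in Ago2KO (18.5% lower). Genes of these chromosomes are part of the all-gene shares, and what lies behind their medians was not tested.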

How the data were processed

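RNA-seq libraries of 21 mouse embryonic stem cell samples (7 groups of 3, called biological replicates in the series' design text) were analysed. Libraries came from a stranded kit for total RNA, per the labels' protocols, and reads were processed with bcl2fastq 2.17 and STAR 2.7.3a on GRCm38/mm10, per the submitters' processing notes. The counting program, annotation and use of strand are not given in the sources used here. The authors deposited raw counts per gene, and RPKM values that the authors scaled to a gene length named for QuasR, per the file headers. Levels are CPM computed from the counts with TMM scaling. The RPKM values given above are these CPM divided by that gene length in kb, and were used only to compare levels between genes. The deposited RPKM values were not used for levels. Of the table's rows, 4789 carry a gene identifier without a symbol, and those rows were kept in library sizes and tests.

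Counts were fitted per experiment with edgeR 4.0.16 (R 4.3.3; TMM scaling, filterByExpr at a minimum count of 10, robust quasi-likelihood F test, Benjamini-Hochberg adjustment over all genes tested), giving 21210 genes in Experiment 1, 21505 in Experiment 2 and 22258 in the fit of all 21 libraries. The fits were tested on simulated data. Alternatives were RLE size factors, DESeq2 1.42.0, no filter on low counts, CPM over 1 in 3 libraries, fits of only the groups compared, a replicate block, and leaving out each library in turn.

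Members, loci, gene lists and marker lists (embryonic stem cell, primitive endoderm, trophoblast, mesoderm, neural and fibroblast) were chosen with earlier results of these data known. Every library's value is given for genes called in at least 2 of the 5 comparisons with a control, or called in any of them with a log2 change of 1 or more in size, limited to the 14 with the largest called change; the others are given by means, ranges and counts. Of the further lists, the 3 called genes with the largest change are named per comparison. Replicates of a group differed by more than counting noise in all 21 pairs of libraries (chi-square per degree of freedom from 3.59 to 80.7). Coordinates come from GENCODE M21 on GRCm38, matched by Ensembl identifier, and sequences from RefSeq GRCm38.p6 or GENCODE M21 transcripts. Of the 34 genes, 19 overlap another annotated gene.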

Additional observations from a re-analysis of the deposited data

Results flagged for a closer look

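These 9 results were singled out because the values of groups labelled as the same knockout differed between the experiments in a test of that difference (Experiment 2 minus Experiment 1, log2 scale, edgeR quasi-likelihood over all 21 libraries). For the Trim71 knockout these were Sgce (1.07 ± 0.26, adjusted p = 0.00835), H19 (0.85 ± 0.26, adjusted p = 0.0334), Igf2r (0.39 ± 0.09, adjusted p = 0.0061), Cd81 (0.36 ± 0.10, adjusted p = 0.028), Grb10 (-0.33 ± 0.07, adjusted p = 0.00259), Gnas (-0.52 ± 0.09, adjusted p = 0.000245) and Phlda2 (-0.56 ± 0.17, adjusted p = 0.0402). Sgce fell in Trim71KO and was not called in Trim71KO_empty. H19 fell less, and Grb10 and Phlda2 fell more, in Experiment 2, while Igf2r and Cd81 rose more there. Gnas fell in Trim71KO_empty and was not called in Trim71KO (0.07 ± 0.06).

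For the groups labelled as Ago2 knockout they were Igf2 (1.41 ± 0.24, adjusted p = 0.00104) and H19 (0.96 ± 0.22, adjusted p = 0.018). Igf2 rose in the libraries labelled Ago2KO_empty and was not called in Ago2KO, and H19 fell in Ago2KO and was not called in Ago2KO_empty. For the Trim71 knockout, the call for Phlda2 was lost in 10 alternatives and that for H19 in 8, the replicate block among them in both, and that for Cd81 was lost without Trim71KO replicate 1 or 2 or without Trim71KO_empty replicate 1 or without W replicate 2 (0.26 to 0.42 over 18 alternatives, largest adjusted p = 0.117). Ago2 itself fell in Ago2KO and was not called in Ago2KO_empty. Plasmid, control and experiment cannot be told apart in any of the differences.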

How the results depend on the processing

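Alternatives were computed for imprinted genes called in the main fit and for Peg10, Ascl2 and Sgce in Trim71KO_empty, which were not called. Over these 110 results on single genes, 1373 alternative values were computed: 0 reversed in sign, 119 lost a call and 2 gained one (Peg10 and Ascl2 in Trim71KO_empty, given above). Only the uncalled results could gain a call, so the number of gains was limited by this selection. Of 64 calls against a control, 43 were kept in every alternative and 21 were lost in some, mostly when 1 library was left out. Fitting only T6B_WT and T6B_MUT gave 5632 genes called over the table (against 3437) and 4 imprinted genes lower instead of 1. The other tools, filters and scalings kept every count within 1.5 times.

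Leaving out 1 library in turn gave 3 to 8 imprinted genes higher in Trim71KO (3 without W replicate 2) and 4 to 7 in Trim71KO against Ago2KO (4 without Trim71KO replicate 2). T6B_WT against T6B_MUT gave 2045 to 2497 genes in all, 4 to 5 imprinted genes higher and 1 to 4 lower (4 without T6B_MUT replicate 3). Trim71KO_empty gave 4 to 8 higher (4 without T6B_MUT replicate 3, 5 without Trim71KO_empty replicate 1). Ago2KO_empty gave 3894 to 8083 genes in all, the highest without its replicate 3, and 1 to 5 imprinted genes lower. Without Ago2KO_empty replicate 1, 2 or 3, 6, 8 or 11 imprinted genes were higher and 2, 3 or 5 lower. The difference between experiments gave 2 to 5 higher for Trim71. For Ago2 it gave 269 to 1634 genes in all, 1 to 3 imprinted genes higher and 0 to 1 lower. A fit that leaves 2 libraries in a group has fewer residual degrees of freedom.

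Replicate numbers were checked for pairing: the correlation of same-numbered libraries' deviations ran from -0.71 to 0.72 and exceeded 0.1 in 10 of 21 pairs, so the numbers were not taken to pair the samples. With the replicate number as a block, 6886 genes were called in Trim71KO, 3831 in Ago2KO, 3247 with T6B_WT, 5801 in Trim71KO_empty and 5976 in Ago2KO_empty. Of the 110 results 2 lost their call, H19 and Phlda2 in the difference between experiments for Trim71. The samples share only a number, so a call lost under the block does not show a weaker effect. Genes under about 1 CPM (Usp29, Rasgrf1, Slc22a18) are limited by their counts. Of the other called genes, H19, Igf2, Dlk1, Ascl2, Sgce and Magel2 also stood below 1 CPM in some libraries, and the same limit holds there.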

Other observations

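Rian, a maternally expressed noncoding RNA of the Dlk1-Meg3 locus, has no row under its symbol, but a row matches its Ensembl identifier, ENSMUSG00000097451, outside the rule that chose the genes. It stood at 329, 290.4 and 275 CPM in W, 342, 373 and 293 in Trim71KO and 268, 302 and 268 in Ago2KO. In Experiment 2 it stood at 357, 367 and 353 in T6B_MUT, 316, 302 and 331 in T6B_WT, 399, 406 and 388 in Trim71KO_empty and 352, 341 and 318 in the libraries labelled Ago2KO_empty. Like Meg3, it was called against no control. It was higher in Trim71KO than in Ago2KO and in Trim71KO_empty than in the libraries labelled Ago2KO_empty, at 0.27 ± 0.09 (adjusted p = 0.0421) and 0.24 ± 0.06 (adjusted p = 0.00687) on the log2 scale (± SE, edgeR quasi-likelihood).

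Markers of other cell types were counted as well. Of the fibroblast list, 4 of 8 markers were in the table, with Col1a1 between 0.437 and 1.31 CPM, Col1a2 between 0 and 0.617, Twist1 between 1.33 and 3.45 and Thy1 between 1.90 and 11 over the 21 libraries. Thy1 rose by 0.68 in Trim71KO and by 1.21 in Trim71KO_empty and fell by 0.67 with T6B_WT, and Col1a1 fell by 0.64 and Twist1 by 0.39 in Trim71KO (log2 scale, edgeR quasi-likelihood). Of the mesoderm list 5 of 8 were in the table and of the neural list 6 of 7, with Tubb3 between 62.9 and 126 CPM and Nes between 10.5 and 20.6. Over all genes, 10.2% rose and 7.78% fell in Ago2KO, 16.9% and 15.6% in Trim71KO, and 9.29% and 6.69% with T6B_WT. The shares were 14.4% and 13.4% in Trim71KO_empty and 16.4% and 12.4% in Ago2KO_empty. Neural markers gave 4 increases and 0 decreases of 5 tested in Ago2KO, 2 and 2 in Trim71KO, 3 and 0 of 6 with T6B_WT, 0 and 3 in Trim71KO_empty and 2 and 1 in Ago2KO_empty. Mesoderm markers gave 2 and 0 of 5 in Ago2KO, 1 and 2 in Trim71KO, 1 and 0 with T6B_WT, and 2 and 0 in each empty-plasmid group. The part of such cells in the levels of imprinted genes was not tested.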
